A study of Arabidopsis thaliana with 3 samples.

Results

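The plastid-encoded small ribosomal subunit genes are the rps genes that lie on the plastid's own genome. They were taken as the probe sets whose platform annotation gives exactly 1 gene symbol starting with lower-case rps and whose RefSeq locus tag belongs to the plastid. The rule found 8 probe sets for 8 genes, rps2, rps3, rps4, rps14, rps15, rps16, rps18 and rps19, among 14338 probe sets in all. A further 3 probe sets list 2 gene copies each and are therefore not members.

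Plastids descend from cyanobacteria and keep bacterial-type ribosomes, which translate the small set of proteins encoded in the plastid genome, mostly those of photosynthesis, gene expression and the ribosome itself. The small subunit reads the messenger RNA. Its proteins come from both genomes, some from plastid rps genes and the others from nuclear genes whose products are imported. Many plastid genes are transcribed together in clusters inherited from bacteria, and the transcripts are then cut, spliced and trimmed.

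The material was lateral nectaries, the main nectar glands at the base of the flower, of Arabidopsis thaliana (ecotype Columbia-0), dissected by hand at floral stages 14 to 15 from plants 30 to 35 days old. The groups were the mutant cwinv4-1, with 2 arrays, and wild-type, with 1 array. CWINV4 encodes a cell wall invertase, which splits sucrose outside the cell, and the series' title calls the mutant nectarless. Each array carried RNA of a pool of many nectaries, so values stand for pools and not for single plants. The title of cwinv4-1 replicate 1 carries an added letter, cwinv4-1a, whose meaning is not given. SWEET9, a sucrose transporter that marks secreting nectaries, was the only measured gene of 3 nectary markers and gave signals of 16300 and 38100 in the mutant and 19700 in wild-type. The mutated gene has no named probe set here, so it could not check the labels.

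Replicate 2 of cwinv4-1 stood apart from both other arrays. On 10334 probe sets a signal was given for every array. Over these, log2 differences had an SD of 0.65 from one mutant array to the other, and SDs of 0.44 for replicate 1 against wild-type and 0.73 for replicate 2 against wild-type. A signal was missing for 20.7% of probe sets on replicate 2, against 13.2% on replicate 1 and 13.1% on wild-type. The 3′ to 5′ signal ratio, a measure of RNA and amplification quality, was highest on replicate 2 in 5 of 6 control pairs. The 18 hybridisation controls, bacterial and phage transcripts added to every array, had a mean log2 difference from wild-type of 0.77 on replicate 2 and of -0.44 on replicate 1. Every result below is therefore given for each mutant array apart, and the part of these array differences in the results was not tested.

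All 8 rps genes had their highest signal on cwinv4-1 replicate 2. Replicate 1 was above wild-type for rps2, rps4 and rps19, by 1.19- to 1.74-fold. It was below wild-type for the other 4 of the 7 genes measured on all 3 arrays, where the mutant arrays disagreed in direction. Of all 10334 probe sets with a signal on every array, 5427 were below wild-type on replicate 1. Among these 10334, 3266 were above wild-type on both mutant arrays and 3462 were below it on both. On replicate 2 all 7 rps genes were at least 2-fold above wild-type, against 4.93% of the 7750 probe sets tested. The count was 6 after quantile normalization or median centring, which left rps3 under 2-fold. It was 4 with the hybridisation controls aligned and 0 with plastid medians aligned. The share of all tested probe sets was not counted in these scalings, which also moved their median on replicate 2. That median log2 difference was -0.17 with quantile normalization and -0.20 with median centring. It was -0.86 with hybridisation controls aligned and -2.67 with plastid medians aligned. On replicate 1 none of the 7 rps genes was 2-fold above and 2, rps15 and rps16, were at least 2-fold below, against 1.29% of those tested. Both were under the 25th percentile of that array, and with low signals set to a floor of 222, the 25th percentile of all signals, neither was. The median log2 difference of the 7 was -0.30 on replicate 1 and 2.09 on replicate 2, beside -0.01 and -0.08 over all tested probe sets. Of the 7, rps15 and rps16 reached the signal needed for testing only through replicate 2. Without these genes all 5 others were at least 2-fold above wild-type on replicate 2, with medians of 0.25 on replicate 1 and 1.67 on replicate 2. In pooled tissue, a change in the number of cells or plastids and a change in RNA per cell cannot be told apart.

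**Figure D1:**
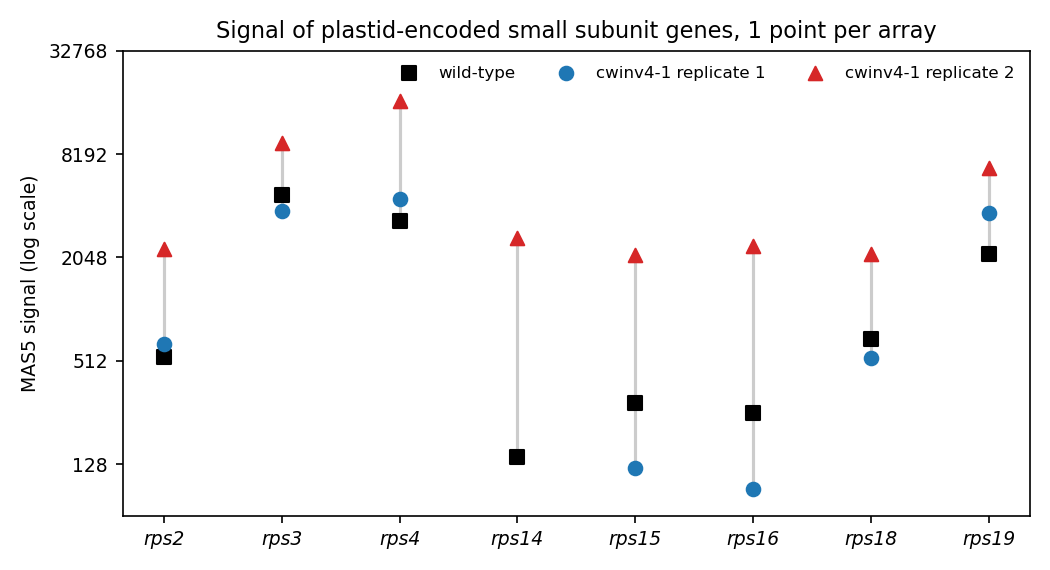
MAS5 signal of each plastid-encoded rps gene on a log axis, with 1 point for each array (wild-type, cwinv4-1 replicate 1, cwinv4-1 replicate 2) and a grey line over the range. Replicate 2 is highest for all 8 genes, and rps14 has no point for replicate 1 because its cell reads null.

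In bacteria, S4 and S15 are proteins that bind the ribosomal RNA of the small subunit first as it assembles. The rps4 gene, for S4, gave a signal of 3333 in wild-type, 4503 in cwinv4-1 replicate 1 and 16800 in replicate 2. The groups did not overlap, but the mutant arrays were 1.90 apart on the log2 scale while replicate 1 lay only 0.43 above wild-type. The fitted difference was 2.61-fold, or 1.38 with an SE of 0.58 on the log2 scale, and did not pass the test (limma adjusted p = 0.636).

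The rps15 gene, for S15, was below wild-type on replicate 1. Its signal was 288.4 in wild-type, 121.6 in replicate 1 and 2103 in replicate 2, so wild-type lay between the mutant arrays. Replicate 2 was 7.29-fold above wild-type, and the mean difference of 0.81 on the log2 scale (SE 0.97) describes neither array. The replicate 1 signal was below 192.8, the 25th percentile of signals there. The log2 difference of replicate 1 from wild-type was -1.25 as deposited and -0.38 with low signals at the floor, so its size is not measured well.

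S2 and S3 sit on the solvent side of the bacterial small subunit, and S3 lines the entry of the messenger RNA channel. The rps2 gene gave 539.5 in wild-type, 643.4 in replicate 1 and 2302 in replicate 2. Replicate 1 exceeded wild-type by 1.19-fold and replicate 2 by 4.27-fold, and the fit put the log2 difference at 1.17 with an SE of 0.55 (limma adjusted p = 0.751). Both mutant arrays were above wild-type, with replicate 1 nearer to wild-type than to its own replicate.

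For rps3 the signals were 4716 in wild-type, 3840 in replicate 1 and 9444 in replicate 2. On replicate 2 this was 1.00 above wild-type on the log2 scale, the smallest such difference among the 7 genes, and replicate 1 was 1.23-fold below wild-type. The mean log2 fold change was 0.35, with a 95% interval from -0.69 to 1.40, which includes no change and changes of over 2-fold upward.

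S14 and S19 belong to the head of the bacterial small subunit. The rps19 gene, which in the plastid genome lies near the edge of the inverted repeat, gave 2136 in wild-type, 3711 in replicate 1 and 6805 in replicate 2. It was the gene on which the mutant arrays came closest, 0.87 apart on the log2 scale, and replicate 1 lay 0.80 above wild-type. The fitted difference was 2.35-fold, or 1.23 with an SE of 0.43 on the log2 scale, with a 95% interval of 0.32 to 2.15 that takes no account of the number of probe sets. After adjustment it did not pass (limma adjusted p = 0.406).

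The rps14 gene gave 141.1 in wild-type and 2667 in replicate 2, and the cell for replicate 1 reads null. It could not be tested. The wild-type signal was below 203.8, the 25th percentile there, and taken against that percentile replicate 2 was at least 13.1-fold higher than wild-type.

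S16 is an assembly protein of the small subunit in bacteria, and the plastid rps16 gene carries an intron. Its signal was 254.3 in wild-type, 91.8 in replicate 1 and 2387 in replicate 2. Wild-type lay between the mutant arrays, which differed by 4.70 on the log2 scale as deposited and by 3.43 with low signals at the floor. Replicate 2 was 9.39-fold above wild-type. The replicate 1 signal was under the 25th percentile of its array, and its log2 difference from wild-type was -1.47 as deposited and -0.20 at the floor. The mean log2 fold change of 0.88 had an SE of 1.08.

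The rps18 gene, whose product lies on the platform of the subunit and which is essential in tobacco, gave 683.9 in wild-type, 527.5 in replicate 1 and 2153 in replicate 2. Wild-type again lay between the mutant arrays, 1.30-fold above replicate 1 and 3.15-fold below replicate 2. Its log2 fold change was 0.64 (SE 0.58), with a 95% interval from -0.58 to 1.86.

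None of the 7 tested rps genes passed limma's moderated test after Benjamini-Hochberg adjustment, and 3 had an unadjusted p under 0.05, namely rps2, rps4 and rps19, beside 6.49% of all tested probe sets. That count fell to 1, rps19, with quantile normalization or a robust prior, and to 0 with hybridisation controls or plastid medians aligned, where no probe set of any gene had such a p. Over all tested probe sets 0.219% passed as higher and 0.206% as lower. The same 3 genes were those with both mutant arrays above wild-type, and 30.0% of all tested probe sets met that condition. The test's only residual degree of freedom is the gap between the mutant arrays, and it takes the lone wild-type array to vary likewise. The filter on low signals kept all 7, but rps15 and rps16 reached it only through replicate 2: their mean log2 signal was 8.71 and 8.58 over the 3 arrays and 7.55 and 7.26 without replicate 2, against a minimum of 8.28. Without these genes the medians of the other 5 were 0.25 on replicate 1 and 1.67 on replicate 2.

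**Figure D2:**
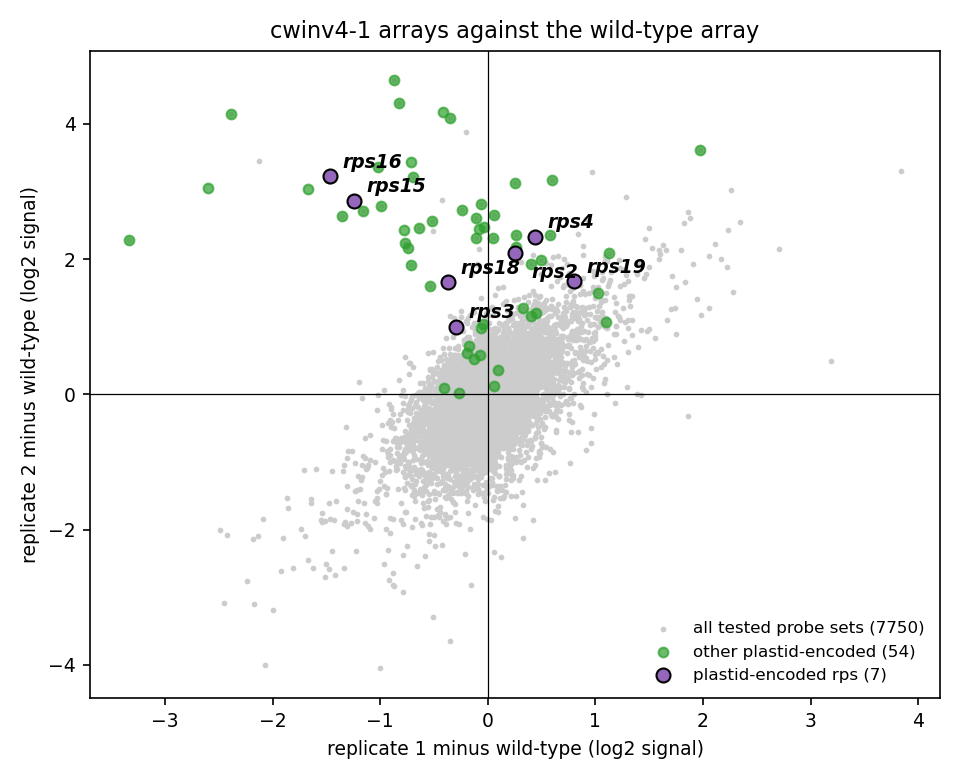
Log2 difference from wild-type on cwinv4-1 replicate 1 (horizontal) and replicate 2 (vertical), with 1 point for each probe set: all 7750 tested in grey, 54 other plastid-encoded ones in green and the 7 rps genes in purple. Every plastid point lies above 0 on the vertical axis, while on the horizontal axis the rps genes run from -1.47 to 0.80.

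The rps genes lay within the range of the other genes of the plastid genome on both mutant arrays. Of 54 other plastid-encoded probe sets measured on every array, 54 were above wild-type on replicate 2, 45 of them by at least 2-fold. On replicate 1, 36 of the 54 were below wild-type. Of all 10334 probe sets with a signal on every array, 5234 were above wild-type on replicate 2, 902 of them by at least 2-fold. On replicate 1, 5427 of the 10334 were below wild-type. Of the 48 other plastid genes tested, 48 were above on replicate 2 and 30 below on replicate 1 as deposited. With hybridisation controls aligned, 40 of the 48 tested were above on replicate 2 and 16 below on replicate 1. Quantile normalization put 4 of 51 and median centring 2 of 48 below wild-type on replicate 2. The median log2 difference of the 54 was -0.15 on replicate 1 and 2.36 on replicate 2, near the -0.30 and 2.09 of the rps genes. Ranked by the difference on replicate 2 among 61 plastid probe sets, rps16 was 9th from the top, rps15 16th, rps4 31st, rps2 38th, rps19 43rd, rps18 44th and rps3 52nd. On replicate 1 the ranks were rps19 5th, rps4 10th, rps2 16th, rps3 35th, rps18 37th, rps15 54th and rps16 56th. The genes highest against wild-type on replicate 2, rps16 and rps15, were thus those lowest on replicate 1, and for both the replicate 1 signal was under the 25th percentile.

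The 7 plastid rpl genes, for proteins of the large subunit, had medians of 0.06 on replicate 1 and 3.17 on replicate 2. Of the 6 tested, rpl16 alone passed (limma adjusted p = 0.0204), as the only one of 55 tested plastid genes. The call was lost with quantile normalization (limma adjusted p = 0.531), low signals at the floor (0.0633), a robust prior (0.551), or hybridisation controls or plastid medians aligned (1 and 0.914). Its signals were 242 in wild-type, 948.8 in replicate 1 and 2970 in replicate 2. At the other end, rpl32 gave 6132, 5103 and 6191 in the same order, a log2 difference of -0.27 on replicate 1 and 0.01 on replicate 2, the smallest of any plastid probe set on replicate 2. The rpo genes encode the plastid's bacterial-type RNA polymerase. The 3 measured on all arrays had log2 differences of -0.78 to -0.54 on replicate 1 and of 1.60 to 2.43 on replicate 2. The -0.78 and 2.43 were of rpoC1, which was not tested and whose replicate 1 signal was under the 25th percentile of that array.

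Members of 1 gene cluster did not share their differences closely. The ribosomal cluster that runs from rpl23 to rpoA holds rps19 and rps3. From rps19 to rpl22, rps3 and rpl16, which follow each other, the log2 difference on replicate 1 was 0.80, 0.26, -0.30 and 1.97, and on replicate 2 it was 1.67, 2.35, 1.00 and 3.62. The largest and the smallest difference on replicate 2 among these 4 thus belonged to neighbours, rpl16 and rps3. Further along, rpl14 was at 4.18 on replicate 2, with low signals of 83.8 and 112.2 on the other arrays, rpl36 was at 3.17 and rpoA at 1.60.

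The rps2 gene lies between the polymerase genes rpoB, rpoC1 and rpoC2 and the ATP synthase genes atpI, atpH, atpF and atpA. On replicate 2 these genes ran from 1.92 (rpoC2) to 3.43 (atpF), with rps2 at 2.09. On replicate 1, rpoC1 and rpoC2 were at -0.78 and -0.71, whereas rps2 was at 0.25, atpH at 0.27 and atpA at 0.40. The values of rps2 were thus nearest to those of atpH and atpA, of the ATP synthase. The low-signal genes atpI and atpF were at -2.60 and -0.71 on replicate 1. The rpoC1 signal of 119.5 on replicate 1 was also under the 25th percentile of that array, and rpoC1 was not tested.

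**Figure D3:**
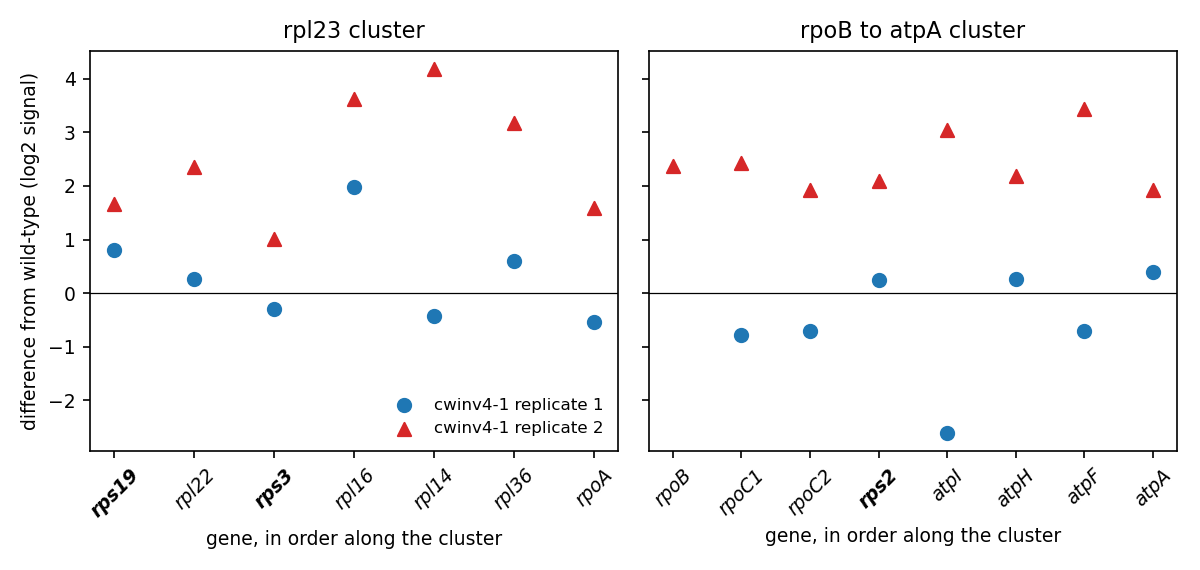
Log2 difference from wild-type of the named genes of 2 plastid gene clusters, in their order along the cluster, on cwinv4-1 replicate 1 (circles) and replicate 2 (triangles). Rps genes are in bold. Every replicate 2 value is above 0, and replicate 1 values fall on both sides of 0 in each cluster.

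The other members have fewer measured neighbours. The photosystem gene psaB, which precedes rps14, gave 3907 in wild-type, 7955 in replicate 1 and 11100 in replicate 2, and psaA had a signal on replicate 2 alone, 542.9. The large subunit gene rpl33, next to rps18, was at 0.06 on replicate 1 and 2.66 on replicate 2, both above the -0.37 and 1.65 of rps18. The gene ndhH, of the NADH dehydrogenase-like complex and next to rps15, was at -1.67 and 3.03, beside -1.25 and 2.87 for rps15, but its signals of 23.7 on replicate 1 and 75.3 in wild-type were too low for it to be tested.

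Likeness was measured as the distance over the log2 differences of both mutant arrays from wild-type, against 4012 tested probe sets with 1 gene name outside the rps genes. Both differences share the wild-type array, and the arrays are only 3, so this describes these arrays alone. The 3 nearest of each gene made 19 different probe sets, 10 of them of plastid genes, which are 48 of the 4012. All neighbours of rps15 and rps16, which passed the filter only through replicate 2, were plastid genes. They are included in the 10, and a count without them was not made. The nearest to rps4 were clpP, a subunit of the plastid Clp protease, at a distance of 0.15, then rpl22 and atpH. Nearest to rps2 was atpH at 0.08, followed by ccb382, which was matched to no locus and not counted as plastid, and by atpA. Nearest to rps16 was rpl20 at 0.03, with ycf4 and ndhD much farther off at 0.47 and 0.60. For rps15 the photosystem genes psbT and psbN and the dehydrogenase gene ndhD came first, psbT at 0.18. For rps18 rpoA was nearest at 0.17, then the nuclear genes AT3G14340 and AT2G27080. The neighbours of rps19 and rps3 were all nuclear. They were AT1G25230, at 0.07, AT4G09890 and AT4G21870 for rps19, and AT5G11910, at 0.04, SWEET9, at 0.06, and AT5G40450 for rps3.

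None of the 4 nuclear genes for plastid ribosomal proteins that were tested passed limma's test, and their log2 differences on replicate 2 ran from -1.40 to 0.44, below all 7 rps genes. AT5G24490 alone had an unadjusted p under 0.05. Of 14 listed nuclear genes of the small subunit, 3 have a named probe set and 2 were tested. AT3G13120, for plastid S10, gave 350.7 in wild-type, 311.4 in replicate 1 and 475.3 in replicate 2, a log2 difference of -0.17 and 0.44. AT5G24490, which encodes a plastid-specific ribosomal protein related to bacterial hibernation factors, gave 2481 in wild-type and 1087 and 939.1 in the mutant arrays. Both mutant arrays of AT5G24490 lay below wild-type and close to each other, and the fitted log2 difference of -1.30, with an SE of 0.38, did not pass (limma adjusted p = 0.23). AT1G64510, for plastid S6, had signals of 361.6 in wild-type and 191.7 in replicate 1 and none on replicate 2.

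Of 24 listed nuclear genes of the plastid large subunit, 6 have a named probe set and 2 were tested. AT3G54210, for plastid L17, was at -0.06 on replicate 1 and -0.96 on replicate 2, and AT2G43030, for plastid L3, at 0.01 and -0.57. Neither passed. No listed sigma factor or phage-type polymerase of the plastid has a named probe set here, and no mitochondrial rps or rpl gene was matched to a single mitochondrial locus.

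All 5 measured markers of other floral and green tissue had lower signals on both mutant arrays than in wild-type. So had 3462 of the 10334 probe sets with a signal on every array. On replicate 1 the log2 differences of the markers were only -0.21 to -0.13. With the hybridisation controls aligned, 5 of 5 turned above wild-type on replicate 1 while 5 of 5 stayed below on replicate 2. The summed signal of the 2 measured mesophyll markers of 14, LHCB4.1 and RCA, was 19307 in wild-type, 17240 in replicate 1 and 15065 in replicate 2. Of 5 pollen markers, 2 were measured. In the same order AT3G07820 gave 658, 569.1 and 128.2, the last under the 25th percentile of its array, and AT5G45880 gave 674.3, 614.1 and 634.8. SPT, the measured carpel marker of 3, gave 877.3, 767.7 and 390.9. Neither petal and stamen marker was measured. The part of tissue makeup in the rps signals was not tested.

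How the arrays were scaled set the direction of several rps differences. After quantile normalization or alignment of the array medians, 7 of 7 rps genes were still above wild-type on replicate 2 and 4 of 7 below it on replicate 1. The shares of all tested probe sets were not counted in these scalings. The medians of all tested probe sets were, in the same order, -0.003 and 0.01 on replicate 1 and -0.17 and -0.20 on replicate 2. With the hybridisation controls aligned, a setting added after their values were seen, rps3 and rps18 turned above wild-type on replicate 1 (0.14 and 0.06). This put 5 of 7 above on both arrays, while rps15 and rps16 remained below on replicate 1. The share of all tested probe sets above on both arrays was not counted in this scaling. Of the 48 other plastid genes tested, 32 were above on replicate 1 and 40 on replicate 2. In that setting the mutant arrays of rps19 lay at 1.23 and 0.90 above wild-type, those of rps3 at 0.14 and 0.23 and those of rps4 at 0.87 and 1.56. The median of all tested probe sets then lay at 0.43 on replicate 1 and -0.86 on replicate 2.

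Measured against the plastid transcripts themselves, 5 of the 7 genes were below wild-type on replicate 2, as were 31 of the 48 other plastid genes tested. The alignment took 2.59 off the log2 differences on replicate 2, more than the median plastid difference of 2.33 there. With the median log2 signal of plastid-encoded probe sets aligned between arrays, rps19 was at 0.63 on replicate 1 and -0.92 on replicate 2, rps4 at 0.27 and -0.26, and rps2 at 0.09 and -0.50. The genes rps3 and rps18 were below wild-type on both arrays, at -0.46 and -1.59 and at -0.54 and -0.93. The genes rps15 and rps16 were below on replicate 1 and above by 0.28 and 0.64 on replicate 2. No rps gene was above wild-type on both arrays in this scaling, which shows only how a gene stood relative to the plastid genes of its own array.

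**Figure D4:**
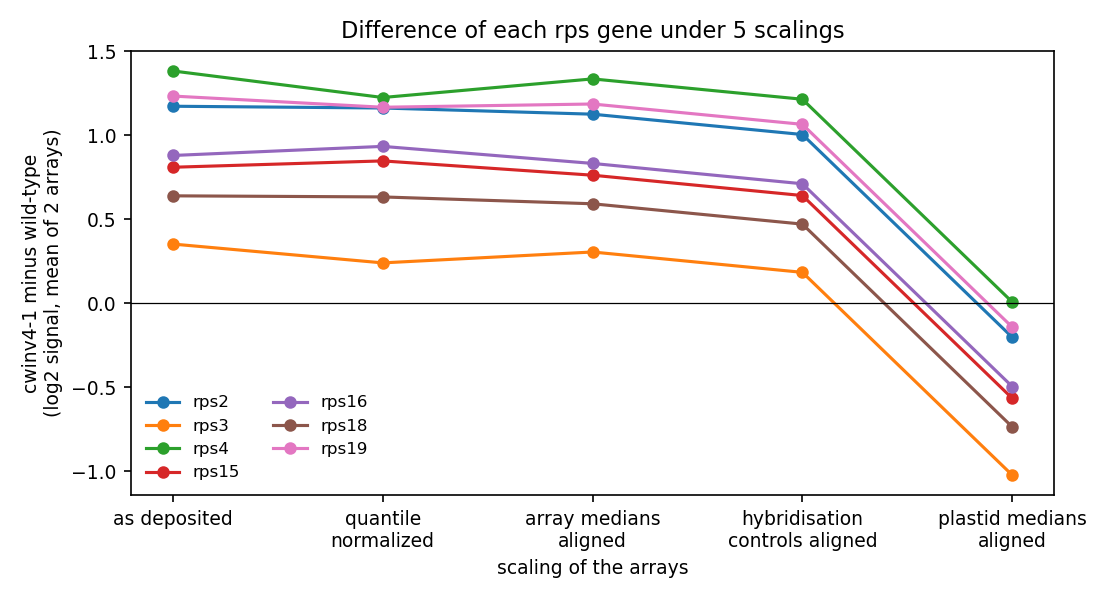
Mean log2 difference of the 2 cwinv4-1 arrays from wild-type for each of 7 rps genes (coloured lines) under 5 scalings of the arrays, with 0 as a black line. All 7 are above 0 in the first 4 scalings, and with plastid medians aligned rps4 is at 0.01 and the other 6 run from -1.02 to -0.14.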

How the data were processed

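The authors deposited a linear signal intensity for each probe set of each array, made with MAS5 per the submitters' processing notes. Its version is not given in the sources used here; per the series' design text, further wild-type arrays, not used here, took part in the normalization. A null was kept as missing. Per the labels' protocols, RNA went through 1 round of amplification with a kit that, as background, primes on poly(A) tails; plastid transcripts mostly lack stable tails, so their signals need not follow their total amount, and this was not tested. Names come from the platform annotation and RefSeq (TAIR10.1): 8037 probe sets have 1 gene name, 335 several and 5966 none.

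The log2 intensities of the 2 cwinv4-1 arrays and the wild-type array were fitted with limma 3.58.1 in R 4.3.3 (eBayes with a variance trend, two-sided, 15.4 prior degrees of freedom) over the 7750 probe sets that had a value on every array and a mean at or above the 25th percentile, with Benjamini-Hochberg adjustment over all of them and a threshold of 0.05. The fit was tested on simulated data in which each probe set varied alike on all arrays. That check does not cover an array that stands apart, as replicate 2 does here. The design text calls the samples biological replicates. The number of arrays limits the precision. Members and lists were chosen with earlier results of these data known. The rule for genes named takes all rps members, the named genes of their clusters, the genes with the smallest p in each list (4 at most), and the 3 nearest probe sets of each member.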

Additional observations from a re-analysis of the deposited data

Results flagged for a closer look

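The 3 probe sets that list 2 copies of a plastid rps gene are not members, and none is named. All 3 gave signals above the wild-type array on both mutant arrays, a condition that 30.0% of all tested probe sets met. Probe set 244940_at gave 551.2 in wild-type, 1343 in cwinv4-1 replicate 1 and 4161 in replicate 2, a log2 fold change of 2.10 (SE 0.51, limma adjusted p = 0.101). Probe set 244992_s_at gave 3169, 5950 and 19100 in the same order, a log2 fold change of 1.75 (SE 0.56, limma adjusted p = 0.299). Neither passed the test. Probe set 244939_at, at 176.9, 293.9 and 478.1, fell under the filter on low signals. Replicate 2 was the highest array in all 3, as for the 8 named genes.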

How the results depend on the processing

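No rps gene passed limma's test in any of the 10 other fits, where their adjusted p ran from 0.0914 to 1. Signs held in 62 of 68 refitted rps values. These include the fits with another filter or eBayes setting, which leave the log2 differences unchanged and so could not turn a sign. The 6 that turned came with plastid medians aligned: rps2 -0.20, rps3 -1.02, rps15 -0.57, rps16 -0.50, rps18 -0.74 and rps19 -0.14, with a median of -0.50 in place of 0.88. Leaving out 1 mutant array gave -0.30 to 2.09 for that median, -0.30 to 1.00 for rps3, -1.25 to 2.87 for rps15, -1.47 to 3.23 for rps16 and -0.37 to 1.65 for rps18, the lower end each time without replicate 2. These have no test.

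The 33 probe sets passing over the whole table became 95 with median centring, 126 without the filter, 90 with a filter at the 50th percentile and 58 at an adjusted p of 0.1. None passed limma's test after quantile normalization (346 with an unadjusted p under 0.05), with low signals at a floor of 222 (479), or with plastid medians or hybridisation controls aligned (0 in each). With 1 mutant array, 234 (replicate 1) and 872 (replicate 2) were at least 2-fold apart. The cause of these shifts was not tested. Alignments to plastid medians or hybridisation controls of the counts and the median were added after the data were seen. Low signals of rps14, rps15 and rps16 limit their ratios. No paired analysis was possible because wild-type has 1 array and the labels used here give no pairing.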
